A study of Danio rerio with 6 samples.

Results

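Lost regions are stretches of the zebrafish genome that were listed as methylated in both control libraries and in neither dnmt1 morphant library. To find them, the peaks of 4 lists were merged wherever they shared 1 base or more, on the 10 chromosomes that every list covers completely (1 and 10 to 18). Of the 83479 merged regions, 11314 were lost, which is 13.6% of all of them. They are set here against the 29017 regions with a peak in all 4 lists, called kept. The members were chosen by the presence and absence of peaks, so their presence in controls and absence in morphants is a description and carries no test.

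The libraries were made by methylated DNA immunoprecipitation (MeDIP-seq), in which an antibody pulls down DNA fragments that carry 5-methylcytosine before sequencing. DNA came from whole embryos at 80% epiboly, late in gastrulation, with 2 libraries of control embryos and 2 of dnmt1 morphants. A morphant has received a morpholino, a synthetic antisense oligomer that keeps its target RNA from being translated or spliced. The labels give no strain, kind of morpholino, dose or injection of the controls. The series also holds 2 RNA libraries from the 10-somite stage, which were not used here.

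Dnmt1 is the maintenance methyltransferase. It copies methylation from the parental strand to the new strand behind the replication fork, with the help of Uhrf1, which binds the hemimethylated sites. When it is short, methylation is diluted with each round of division unless it is laid down again by the de novo enzymes of the Dnmt3 family. Vertebrate genomes are methylated at the greater part of their CpG sites, and a MeDIP peak marks a place where methylated sites are dense enough for the antibody to enrich the fragments.

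The lost regions made up 21.3% of the 53068 regions that had a peak in both control lists, which are all the regions that could have been lost (95% exact binomial interval 21.0 to 21.7, over the number of regions only). A further 24.0% had a peak in 1 morphant list and 54.7% were kept. Control peaks in lost regions covered 15.3 Mb, or 13.6% of the 112 Mb covered by control peaks. Leaving out a list drops 1 of the 4 requirements and can only add members. There were 17835 lost regions without control replicate 1 (27.9% of those that could have been lost) and 17214 without control replicate 2 (27.3%). There were 17437 without morphant replicate 1 (32.7%) and 18306 without morphant replicate 2 (34.3%). The control lists were longer, with 64400 and 65490 peaks on these chromosomes against 47665 and 49396 in the morphants, and a longer list by itself raises the number of lost regions. With the 47665 strongest peaks of every list, 6795 of 37595 regions in both control lists were lost (18.1%). Read depth and pull-down efficiency of the libraries are not given, so their part cannot be told apart from that of the knockdown. In whole embryos, fewer methylated cells and less methylation per cell cannot be told apart either.

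The absences that define the members were split between the morphant lists as follows. Of the regions in both control lists, 34.1% had no peak in morphant 1 and 32.5% had none in morphant 2. Among those absent from morphant 1, 62.5% were absent from morphant 2 as well. Among those present in morphant 1, 17.0% were absent from morphant 2. These shares describe the values that chose the members and support nothing further.

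The strongest lost regions were among the top 2% of control peaks. Fold enrichment, the authors' value for each peak, is used here to rank and describe peaks within a list. On chromosome 1 from 20856027 to 20857530, it was 14.3 in control 1 and 16.7 in control 2. The nearest morphant peaks lay 15387 bp away in morphant 1 and 24188 bp away in morphant 2. On chromosome 14 from 7722367 to 7723600, it was 12.3 and 13.7, with the nearest morphant peaks 4100 and 4246 bp away. Neither place had a morphant peak of any listed height.

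The other strongest members, ranked by the lower of the 2 control values, had similar heights. A region on chromosome 15 from 34228000 to 34229167 had a fold enrichment of 12.3 in control 1 and 12.1 in control 2. One on chromosome 10 from 18963183 to 18964425 had 11.7 and 13.1. A second region on chromosome 14, from 36143983 to 36145339, had 12.4 and 11.7, and a morphant 2 peak lay only 392 bp from it. On chromosome 11 from 43641976 to 43643903 the values were 11.5 and 11.5, and on chromosome 13 from 8204008 to 8205566 they were 11.5 and 12.2. The region on chromosome 13 from 23395641 to 23396698 had 11.5 and 14.1. On chromosome 17, the region from 24981099 to 24982605 had 11.5 and 11.9 and that from 52574801 to 52576324 had 11.5 and 12.5. The larger control value was at most 1.23 times the smaller in these 10 regions. They lay on 7 chromosomes and were 1058 to 1928 bp wide. Of their 20 neighbouring regions in the control lists, 6 were lost, where 21.3% of all regions in both control lists were lost. With so few neighbours this count is not read as a trait of the strongest members. No source used here names the genome build, so positions are those of the lists, and overlap with genes was not analysed here.

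Loss was rare at this height. Of the 531 regions that make up the strongest 1% by the lower control value (11.2-fold or more), 13 were lost (2.45%) and 487 were kept (91.7%). Lost regions were in general weaker than kept ones within the control lists. Their median fold enrichment was 5.51 in control 1 and 5.5 in control 2, against 6.45 and 6.49 for kept regions. The distributions overlapped widely. The middle 80% of lost regions lay between 4.04 and 7.63 in control 1, and that of kept regions between 4.44 and 9.45. Regions found in 1 morphant list were in between, with medians of 5.81 and 5.84. Presence in a list depends on peak height, so these values describe the members and support nothing beyond that.

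**Figure D1:**
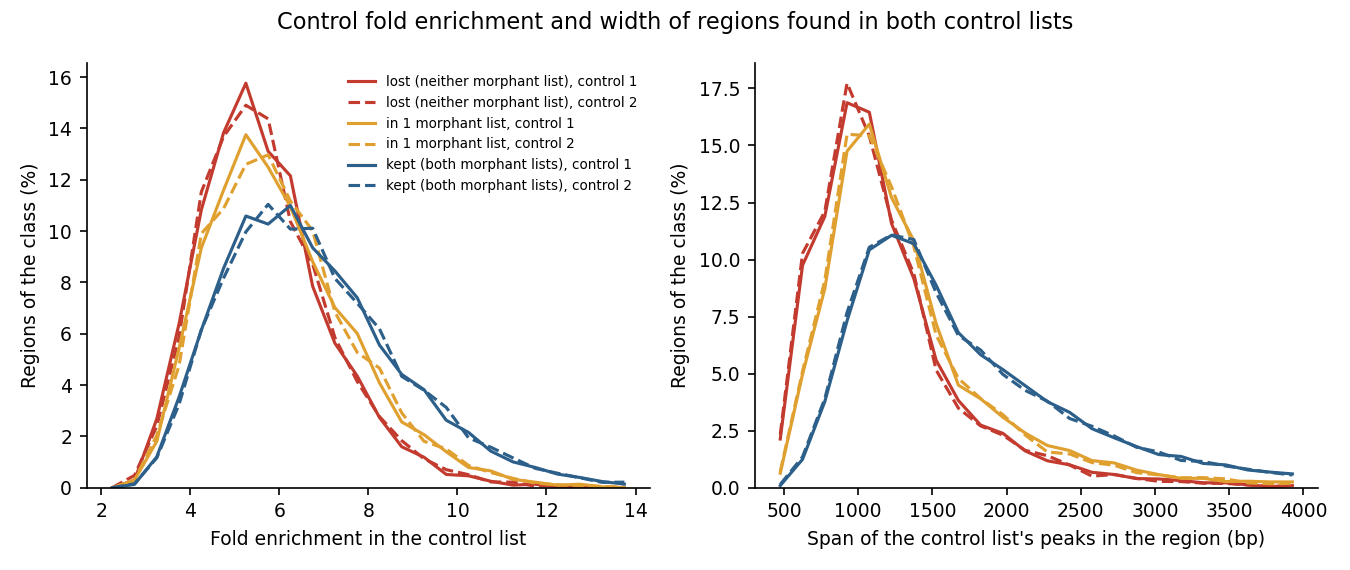
Share of regions (%) by control fold enrichment (left) and by the span of the control list's peaks in the region (right, bp), for lost regions (red), regions in 1 morphant list (yellow) and kept regions (blue). Solid lines are control 1 and dashed lines control 2. Both controls place lost regions lower on both axes, with median fold enrichment of 5.51 and 5.5 against 6.45 and 6.49.

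Lost regions were also narrower. The median control peak in a lost region was 1072 bp wide in control 1 and 1057 bp in control 2, against 1462 and 1438 bp in kept regions. These medians are of single control peaks, because merging 4 lists widens kept regions by construction. The merged regions themselves had medians of 1198 and 1878 bp. A lost region held a single control 1 peak in 99.3% of cases and a single control 2 peak in 98.9%, against 94.5% and 93.9% of kept regions. Morphant peaks can join control peaks into a single kept region but never into a lost one, so these shares are tied to the rule. The width difference depended on which peaks entered: it was -385 bp as the mean of the control lists, and -118 bp when the upper 50% of each list by fold enrichment was used.

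The share lost varied with width and with height. Width here was the span of a control list's peaks in a region, as the mean of the controls. Where a region held several peaks, the span took in the gaps between them, which a morphant peak can bridge. A wider region also offers more bases for a morphant peak to share, so width is tied to the rule. In the narrowest decile of regions, up to 848 bp on average over the controls, 49.3% were lost. In the widest decile, from 2602 bp, 6.01% were lost. Across deciles of fold enrichment the share fell from 30.2% in the lowest to 5.88% in the highest. Ranking by control 1 or by control 2 alone gave nearly the same ends: 46.1% and 46.3% in the narrowest decile and 6.63% and 6.09% in the widest.

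Width and height each went with loss at a matched level of the other. Both are tied to the rule, so these values only describe the members. Within each decile of fold enrichment lost regions were narrower than kept ones, the difference in medians running from -686 to -293 bp. Within each decile of width they were weaker, with differences from -1.51 to -0.915 in fold enrichment. Among narrow and weak regions, the lowest quintile of both, 51.4% were lost (924 of 1798). Among regions in the top quintile of both, 18 of 1399 were lost, or 1.29%. Narrow regions of the greatest height still had 18.05% lost, and weak regions of the widest quintile 14.7%.

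**Figure D2:**
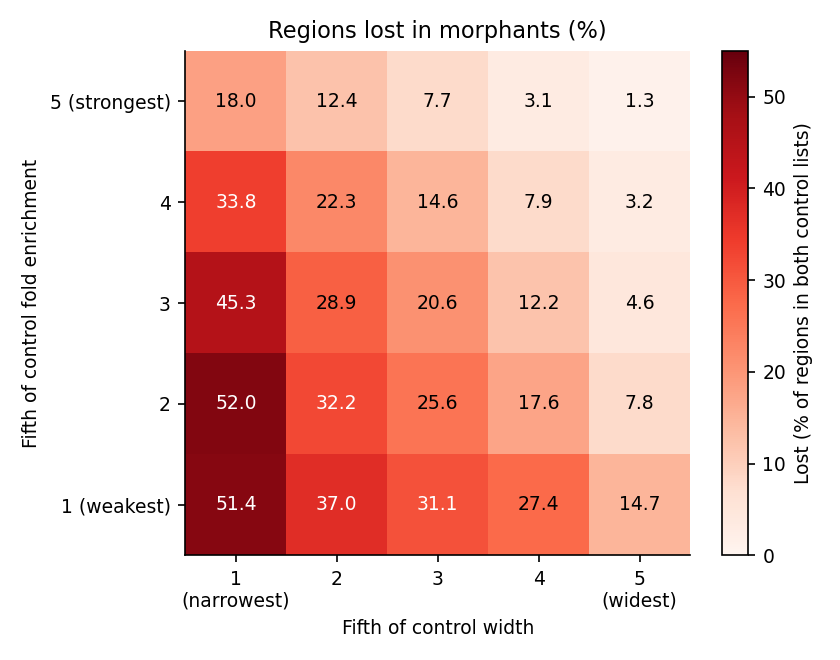
Percent of regions in both control lists that were lost, by quintile of mean control width (span of a list's peaks in the region, x axis) and of mean control fold enrichment (y axis). The share runs from 51.4% in the narrow and weak corner and 52.0% in the cell above it to 1.3% in the wide and strong corner.

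Wide lost regions were uncommon but existed. Of 382 regions with a mean control span of at least 5000 bp, 19 were lost (4.97%). The widest of all, on chromosome 10 from 5000158 to 5008390, spanned 8233 bp as 1 peak in each control, with fold enrichments of 4.03 and 4.09. The next was on chromosome 17 from 12882009 to 12890153 (8145 bp, 3.42 and 3.22). The third was on chromosome 18 from 2352736 to 2360823 (8088 bp, 4.11 and 3.53). The other named regions, both on chromosome 1, ran from 25621477 to 25629278 (3.34 and 3.59) and from 27567545 to 27575230 (3.19 and 3.68). All 5 were broad and low, between percentiles 0.902 and 10.7 of their control lists.

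Control peaks of lost regions shared the greater part of their length. In a lost region with 1 peak in each control, the peaks had to share a base to be merged. Some overlap is therefore set by the rule, which is not so for kept regions. In the 11126 lost regions with 1 peak in each control, the peak centres were a median of 66 bp apart, and the shared part was a median of 84.7% of their joint length. In 26423 kept regions of that kind these were 73.5 bp and 87.3%. Fold enrichment differed between the controls by a median of 1.13-fold in lost and 1.12-fold in kept regions. Across regions, the control values correlated with r = 0.71 (rho = 0.68) over the 11314 lost and r = 0.82 (rho = 0.81) over the 29017 kept regions. These correlations are across regions of a single pair of libraries, and regions are not independent replicates.

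Some members had a morphant peak close by. In 238 lost regions (2.10%) a morphant peak lay under 100 bp away without sharing a base. A morphant peak lay within 1 kb of 3041 lost regions (26.9%), and requiring none there left 8271 members, while merging peaks up to 500 bp apart left 9303. The closest was on chromosome 13 from 7699146 to 7700343, with control values of 3.09 and 3.83 and a morphant peak directly adjoining it. Just outside the rule were 33 regions in which morphant peaks shared under 100 bp with the control peaks, such as that on chromosome 12 from 24099398 to 24101878, which shared 3 bp and had 4.75 and 7.65. The median control fold enrichment was 5.54 and 5.45 just inside, and 5.58 and 5.61 just outside.

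Most lost regions had a morphant peak of some kind within a few kb, and no such distance is given for other positions. The nearest morphant peak was a median of 2.13 kb away, with quartiles of 0.92 and 4.28 kb. It lay beyond 10 kb for 555 lost regions (4.91%). Within 50 kb of a lost region there was a median of 10 other regions found in both control lists, the same as around kept regions, and 22.2% of these neighbours were lost, against 20.9% around kept regions. The nearest such neighbour was closer to a lost region (median 2.59 kb) than to a kept one (3.57 kb). A morphant peak that bridges close control regions merges them into a region that is not lost. Short distances from kept regions are therefore fewer by construction, and nothing further is read from this difference. A gained region, present in both morphant lists and in neither control list, lay within 5 kb of 5.99% of lost and 4.19% of kept regions. Morphant peaks just beside the control peaks can make a lost and a gained region at once, so the rule bears on these shares too. There were 2320 gained regions, 6.82% of those in both morphant lists.

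Pooled over all gaps, the next region was lost about as often after a lost region as after others, and longer runs were present as well. The next region in both control lists was lost after 2430 of 11311 lost regions (21.5%) and after 21.3% of regions that were not lost. From a lost region to the next lost one there was a median of 29.2 kb (middle 80% 4.15 to 101 kb). The 11314 members formed 8884 runs of consecutive lost regions, and 7030 members (62.1%) stood alone between regions that were not lost. Standing alone depends on how common loss was, so this share is not read as a trait of the members. Of runs that had reached a given length, the share that went on was 20.9% at 1 region, 22.2% at 2 and 24.8% at 3. It was 32.4% at 4, 39.4% at 5, 38.5% at 6, 60% at 7 and 33.3% at 9. Few runs lie behind the later shares, with 69 runs that ended at 4 regions, 20 at 5, 8 at 6, 2 at 7 and 2 at 9. No trend is read from them. The share of next regions lost varied with distance. After a lost region it was lower than after others at gaps under 2 kb. At 2 to 5 kb the shares were nearly equal, at 20.6% (exact binomial interval 19.2 to 22.0) and 20.9%. From 5 kb up the share after a lost region was the higher. At 10 to 20 kb and beyond 20 kb its interval included the share after others. These intervals cover the number of regions only, and the pooled shares mix all gaps. A morphant peak that bridges close regions merges them into a region that is not lost, so the rule bears on the shares at short gaps. When the next region was under 1 kb away, it was lost after 24.8% of lost regions (exact binomial interval 22.6 to 27.2) and after 29.2% of regions not lost. At 5 to 10 kb the shares were 20.5% and 18.9%, and beyond 20 kb 23.6% (interval 20.6 to 26.8) and 20.9%. Requiring that no morphant peak lie within 1 kb gave 19.7% followed by a lost region against 15.6% of all regions. Under that margin 1 morphant peak can take out 2 close members at once, so the rule ties neighbouring calls and nothing is read from this difference. The upper 50% of each list gave 33.2% against 31.5%, and equal numbers of top peaks 19.4% against 18.1%.

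**Figure D3:**
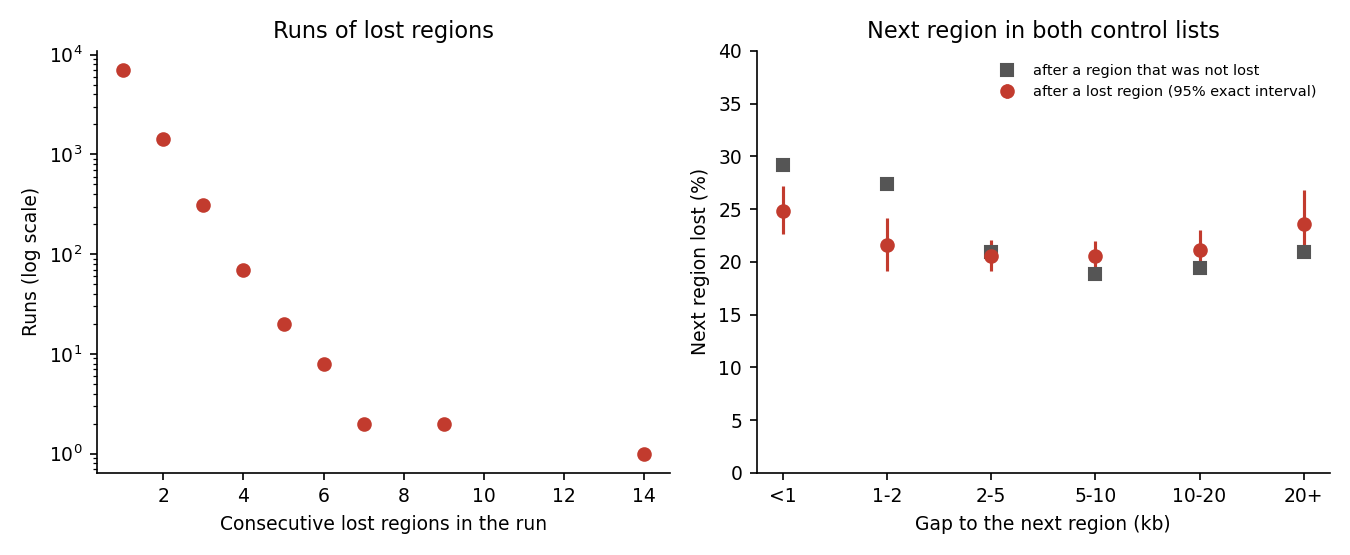
Left, number of runs (log axis) by the number of consecutive lost regions, from 7030 single regions to 1 run of 14. Right, percent of next regions that were lost, by gap (kb), after a lost region (circles, 95% exact interval) and after one that was not lost (squares). Under 2 kb the circles lie below the squares, at 2 to 5 kb they are nearly level, and from 5 kb up they lie above. The intervals at 10 to 20 kb and beyond 20 kb include the squares.

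The longest run held 14 lost regions in a row over 105 kb on chromosome 15, from 46044569 to 46149882. Control 1 had 17 peaks there and control 2 had 16, and neither morphant list had any. Fold enrichment of these regions was 3.43 to 8.39 in control 1 (median 5.135) and 3.01 to 9.85 in control 2 (median 4.685). The nearest morphant peaks lay 3.1 kb before the run and 3 kb after it. The highest control value in the run was that of a region on chromosome 15 from 46087932 to 46091345 with control values of 6.95 and 9.85. The control medians in the run were a little under the 5.51 and 5.5 of all lost regions.

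**Figure D4:**
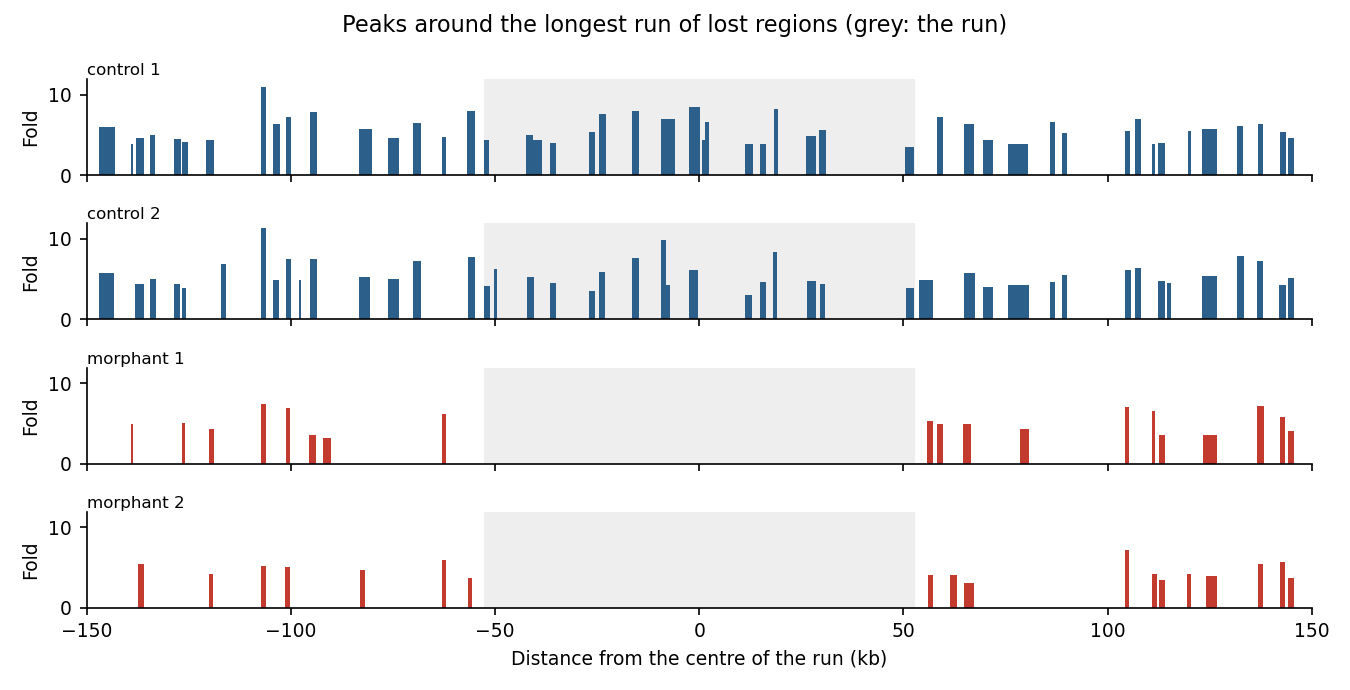
Peaks of the 4 lists within 150 kb on either side of the centre of the longest run (grey, 14 lost regions). The x axis is distance in kb and bar height is the authors' fold enrichment. Control 1 and control 2 have 17 and 16 peaks in the grey stretch and the morphants have none.

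The next longest runs were less complete. Both held 9 regions. That on chromosome 12 from 43992247 to 44278613 had 11 peaks in each control, 1 in morphant 1 and none in morphant 2. That on chromosome 1 from 56104261 to 56545032 had 12 and 10 control peaks and 2 in each morphant list. It held the lost region farthest from any morphant peak, from 56228829 to 56230546 on chromosome 1, which was 135 kb from the nearest one and had control values of 3.87 and 4.93. A run of 7 on chromosome 18 from 28680754 to 28746297 had 8 peaks in each control, none in morphant 1 and 1 in morphant 2. A run of 7 on chromosome 1 from 34312776 to 34645740 had 8 and 10 control peaks but 9 and 8 morphant peaks, which lay between the lost regions. Of 8884 runs, 33 held 5 or more regions.

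The share lost was similar on the 10 chromosomes. It ran from 20.3% on chromosome 11 (978 of 4829) to 22.3% on chromosome 18 (1183 of 5301), with exact binomial intervals of 19.1 to 21.4 and 21.2 to 23.5. Density was 20.4 to 23.3 lost regions per Mb. The mix of widths and heights on each chromosome would give 20.7 to 21.7%, if every region carried the share of its class of width and fold enrichment.

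Windows of 1 Mb, which hold fewer regions (median 104), varied more than whole chromosomes. The cause of this spread was not tested. The SD over windows was 5.25 percentage points. The mean binomial SD of a window, at the share from its widths and fold enrichments, was 4.06. In 507 windows with at least 50 regions in both control lists the share lost had a median of 21.2%, quartiles of 17.8 and 24.7%, and no window was without a lost region. The exact interval of 52 windows (10.3%) did not include the overall 21.3%, with 26 above it and 26 below. The highest was on chromosome 1 from 17000001 to 18000000, with 32 of 69 regions lost (46.4%, interval 34.3 to 58.8). It held 82 and 89 control peaks and 59 and 44 morphant peaks. Its mix of width and fold enrichment classes would give 28.0%. These classes are coarse and use the same lost calls, so nothing is read from the gap to the observed share. Next came chromosome 1 from 56000001 to 57000000 (26 of 57, 45.6%), which contains the run of 9 described above, and chromosome 16 from 22000001 to 23000000 (31 of 82, 37.8%). The lowest was chromosome 16 from 36000001 to 37000000, where 7 of 79 regions were lost (8.86%, interval 3.64 to 17.4) against 23.3% from width and fold enrichment. Control lists had 89 and 100 peaks there and morphant lists 83 and 90. The other low windows were on chromosome 15 from 28000001 to 29000000 (11 of 104, 10.6%) and on chromosome 13 from 34000001 to 35000000 (11 of 103, 10.7%). Intervals cover counting error only, and the windows were picked as extremes.

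Of 20 equal bins along the chromosomes, the first had the lowest share lost, and the last resembled some inner bins. The outer 10% of the chromosomes (5% at each end) held 10.5% of lost and 11.2% of kept regions, a difference of -0.69 percentage points that was negative on 8 of 10 chromosomes. It turned to 0.23 when a list had to cover 50% of the control-covered bases and to 0.10 with the upper 50% of each list, so no direction is drawn from it. It pools ends that went opposite ways. The first 5% held 4.71% of lost and 5.77% of kept regions, and the last 5% held 5.75% and 5.39%. In the first 5% of the chromosomes 18.3% of regions were lost (533 of 2912), and in the last 5% 22.8% (651 of 2854). The first share was the lower on 9 of 10 chromosomes, chromosome 18 being the exception. The last share was near that of inner bins, such as 22.5% at 15 to 20% of the length and 22.8% at 80 to 85%. The planned result was the pooled outer 10%, and the split by end was not run under the alternatives. Control spans were wide at both ends, with medians of 1628 and 1626 bp against 1236 bp at 55 to 60% of the length. The mix of width and fold enrichment classes would give 18.9% and 19.4%. The last 5% of chromosome 15 was the highest of all, at 31.3%, and 28.0% without the run of 14 that lies in it.

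**Figure D5:**
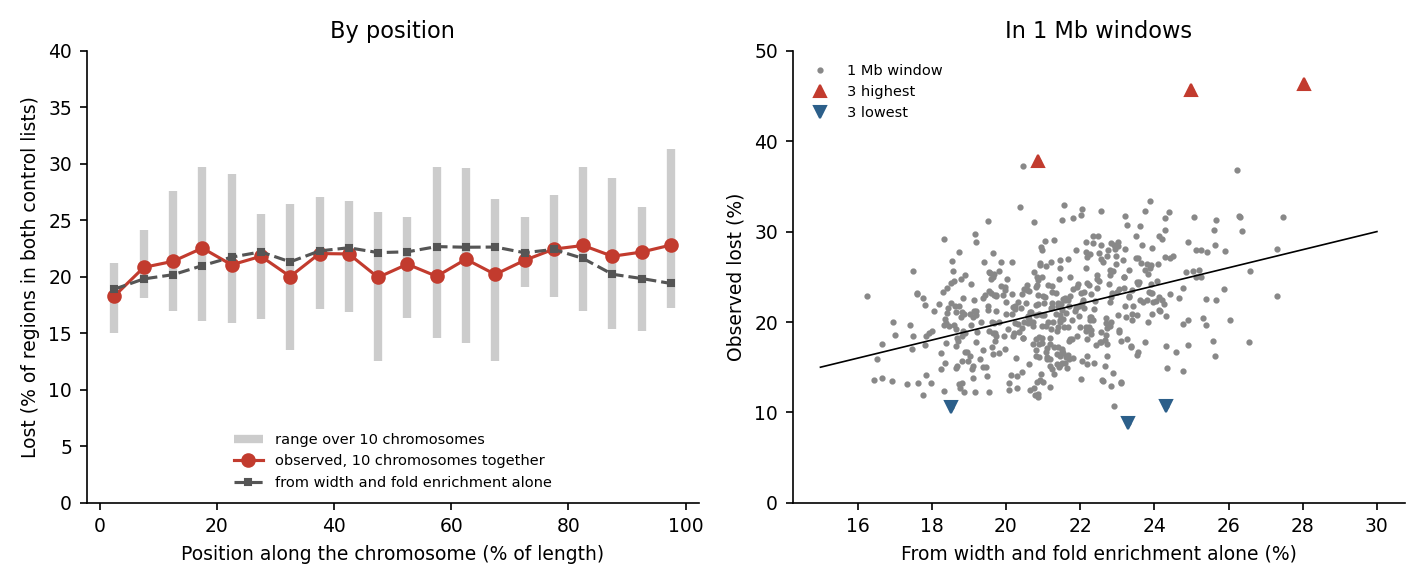
Left, percent of regions lost in 20 equal bins along the chromosomes (red), the range over 10 chromosomes (grey bars) and the share given by width and fold enrichment alone (squares); the first bin is at 18.3% and the last at 22.8%. Right, observed percent against the share from width and fold enrichment for 507 windows of 1 Mb, with the 3 highest (46.4% at most) and the 3 lowest (8.86% at least) marked and a line where both are equal.

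Kept regions next to a lost one had a slightly lower median rank of fold enrichment than other kept regions in all 4 lists. The percentile rank within each list was used. Kept regions had to be listed in every library and listing depends on peak height, so the ranks are not independent of the rule. Among 10886 kept regions beside a lost region the median rank was 62.6 in control 1, against 65.3 among the other 18131 kept regions. In control 2 it was 63.0 against 65.8, in morphant 1 54.3 against 55.8, and in morphant 2 55.1 against 56.2. The gap was -2.71 ± 0.05 percentile points in controls and -1.31 ± 0.30 in morphants (SD, n = 2 each). The morphant gap minus the control gap was 1.39 points, and an exact two-sided permutation test of 2 against 2 lists gave p = 0.33, the smallest it can give. Ranks come from lists of different lengths, so this value is given as it stands and no difference between the groups is read from it. The value was 2.75 without control replicate 1 and 1.23 without control replicate 2. It was 2.20 without morphant replicate 1 and 3.53 without morphant replicate 2. Over all alternatives it ran from 0.514 to 3.53.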

How the data were processed

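MeDIP-seq was done on 2 control and 2 dnmt1 morphant libraries, grouped by their titles. Per the file headers, the authors deposited 1 peak list per library, with chromosome, start, end and a fold enrichment (a ratio) for each peak. The submitters' processing notes name BWA and MACS2 among their tools, without roles. No source used here gives the genome build, the caller's threshold, the input or the read depth. Lists of 65516 peaks break off inside chromosome 19 (controls) or 21 (morphants), so chromosomes 1 and 10 to 18 were used. Peaks were treated as closed intervals. Quintiles of width (span of a list's peaks in a region) and of fold enrichment, as means over the controls, gave 25 classes. The share lost in each class, from the same lost calls, was used for the shares described as given by width and fold enrichment. The classes are coarse, so these shares are a description and do not separate width and height from anything else. Chromosome length was taken as the last peak end. The labels name no separate clutches, so the spread between replicates may be technical.

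The members, comparisons and rules were chosen with earlier results of these data known. Named regions are the 10 strongest and 5 widest members, the 5 longest runs, and the 3 highest and 3 lowest windows. Regions at the edge of the rule, the region farthest from a morphant peak and members inside runs were named after their values were seen. Intervals are exact (Clopper-Pearson) at 95%. Steps were tested on simulated peaks, in Python 3.11.15 with pandas 2.3.3, numpy 2.4.6 and SciPy 1.17.1. Plots used matplotlib 3.10.9. Alternatives were the upper 50% of each list, equal numbers of top peaks, a 50% overlap, a margin of 1 kb, merging up to 500 bp, leaving out each list, another end zone, next regions within 20 kb and a replicate block.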

Additional observations from a re-analysis of the deposited data

How the results depend on the processing

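The number of lost regions was 7793 to 12338 under the upper 50% of each list, a 50% overlap, a 1 kb margin and merging up to 500 bp, 6795 with equal numbers of top peaks, and 17214 to 18306 when 1 list was left out. The share lost was 31.5% with the upper 50% of each list, 18.1% with equal numbers of top peaks, 23.9% with the 50% overlap, 15.6% with the 1 kb margin, 18.5% with merging up to 500 bp, and 27.3 to 34.3% without 1 list. Lost regions were narrower under every alternative run: by the same settings the difference was -118, -377.5, -327.5, -385 and -346 bp, and -434 to -293 bp without 1 list. They were also weaker under every one: -1.19 in fold enrichment with the upper 50%, -0.855 with equal numbers, -0.9 with the margin, and -1.2 to -0.725 without 1 list. The share followed by a lost region was 33.2%, 19.4%, 24.4%, 19.7% and 18.8% by the same settings. The shares of all regions beside these were 31.5%, 18.1%, 23.9%, 15.6% and 18.5%. Without 1 list the share followed by a lost region was 27.0 to 34.2%, beside 27.3 to 34.3%. Under the 1 kb margin 1 morphant peak can take out 2 close members at once, so the rule bears on that share. The difference in the outer 10% reversed to 0.0954 with the upper 50% and 0.230 with the 50% overlap, and was -1.73 with equal numbers. It was -0.847 to -0.552 without 1 list. The cause of these shifts was not tested.

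The morphant minus control rank gap of kept regions beside lost ones was 0.514 to 3.53 points over the alternatives. Its exact permutation p was 0.67 with the upper 50%, the 1 kb margin, merging up to 500 bp and without control replicate 2, and 0.33 in the other settings without a block. It was 1.23 to 3.53 without 1 list. With a replicate block, pairing lists by number, it was 1.39 (exact sign-flip p = 0.50, the smallest possible). Over 29017 kept regions, log2 ratios of fold enrichment between the controls and between the morphants, replicate 1 over 2, correlated with r = 0.0065. An effect shared by same-numbered libraries that shifts a whole list would not show in this value. Whether the numbers pair the lists therefore cannot be told. Read depth is unknown, and a region without a peak is one not detected as enriched, which does not show that it was unmethylated.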

Other observations

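Chromosome 19, which was left out because control 2 ends near its start, is covered by control 1 up to 8.05 Mb and by both morphant lists in full. Over that stretch 231 of 1088 control 1 regions had no morphant peak (21.2%, 95% exact binomial interval 18.8 to 23.8). With control 1 alone on the whole of the 10 chromosomes the share was 27.3% (17214 of 62957). The stretch of chromosome 19 is only the start of a chromosome, so these shares cover unlike positions and no difference is read from them. The median control 1 fold enrichment on chromosome 19 was 5.16 in regions absent from both morphant lists and 6.18 in those present in both, and the median spans were 1143 and 1711 bp.

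Of 2669 stretches of at least 20 kb between morphant peaks, 1265 held no lost region and 16 held 5 or more. Together they held 2150 lost regions of 11314. Any region of both control lists inside such a stretch is lost by the rule, so these counts only describe where control regions lay. No share of chromosome length is given beside them. The second highest count after the run on chromosome 15 was on chromosome 1 from 56094214 to 56367738, with 8 lost regions, 12 control 1 peaks and 8 control 2 peaks over 274 kb. Stretches with 6 lost regions each lay on chromosome 17 from 41388475 to 41446721 (58.2 kb), on chromosome 12 from 46089584 to 46160093 (70.5 kb) and on chromosome 18 from 28688697 to 28765469 (76.8 kb). These stretches were chosen after their values were seen.

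Ranks of lost and gained regions come from lists of different length and height and are given side by side only. The median rank of lost regions was 44.2 and 43.7 (percentiles of control 1 and control 2), and that of gained regions was 42.6 and 43.1 (morphant 1 and morphant 2). Median spans were 1076 and 1062 bp for lost and 1108 and 1072 bp for gained regions.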
